A study of Homo sapiens with 6 samples.

Results

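The 38 genes described here encode the sugar transporters, glycolytic enzymes, lactate transporters and pyruvate dehydrogenase kinases of the path from glucose to lactate, together with genes that hypoxia is known to induce. They were chosen by name, as a list of genes of that path and of the hypoxia response, with earlier results of these data known. All 38 were found among the 56638 gene names of the count table. RNA sequencing compared 3 libraries of HL60 cells with a CRISPR/Cas9-mediated SKI deletion (SKI knockout) with 3 libraries of a CRISPR/Cas9 control of the same cell line. HL60 is an established human cell line from an acute myeloid leukaemia, with features of promyelocytes, and the SKI protein represses transcription through SMAD partners. The titles number the deleted line 3 and the control line 1. Both grew in medium with 10% serum. Each group was thus 1 line, and the effect of the edit and a difference between lines cannot be told apart. The labels say neither whether a line was a clone or a pool, nor that replicates were separate cultures, nor at what oxygen level the cells were kept, so p-values rest on library-to-library spread alone, possibly technical in origin.

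Glycolysis splits glucose into pyruvate, and fast-growing cells and granulocytes pass much of that pyruvate on to lactate. Uptake through facilitative transporters of the SLC2A family, phosphorylation by hexokinase and the phosphofructokinase step are the points at which the flow is mainly controlled. In low oxygen the transcription factor HIF-1, whose alpha subunit is otherwise hydroxylated by prolyl hydroxylases of the EGLN family and destroyed, switches on many of these genes along with VEGFA, CA9, BNIP3 and NDRG1. Messenger RNA levels alone, which is what was measured here, do not give the flow through the path.

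Libraries held 47930276 to 58553247 counts, and 16340 genes were tested with edgeR's quasi-likelihood test, with Benjamini-Hochberg adjustment over all of them and a threshold of 0.05. SKI mRNA, the targeted gene, stood at 59.6, 40.7 and 42.0 CPM (read counts scaled by library size) in the knockout libraries, against 63.9, 83.5 and 88.5 CPM in the control libraries, a log2 fold change of -0.73 (edgeR adjusted p = 0.0282). That call ended with library totals (adjusted p = 0.0673), with each gene centred on its neighbours along the chromosome (0.193), and without knockout replicate 2 (0.0769), control replicate 2 (0.109) or control replicate 3 (0.136). Of 12 markers of myeloid leukaemia lines, 10 were tested, 6 of which were lower in the knockout and 0 higher. SPI1, MYB, SRGN and LYZ did not pass. The summed level of the 12 was 3550 to 9927 CPM in knockout libraries, against 13284 to 15609 CPM in control libraries. MPO alone made up most of that sum, at 2562 to 8538 CPM in the knockout and 11626 to 13987 CPM in the control. ELANE and KIT had at most 4 counts in any library, while MPO had at least 134410. The lower markers were MPO, AZU1, PRTN3, CD33, CEBPE and CTSG, and 3 markers were lower without knockout replicate 1, control replicate 1 or control replicate 3. AZU1, PRTN3 and CD33 lie on chromosome 19, where the median log2 fold change of 693 genes was -0.48. With each gene centred on its chromosome, or on its neighbours, 5 markers were lower. Summed levels of 10 lymphoid markers were 33.1 to 37.97 CPM in the knockout and 41.1 to 50.7 CPM in the control. Of the 4 tested, the B cell gene CD79A was higher (log2 1.70, adjusted p = 0.0162) and the T cell gene CD2 lower (log2 -1.46, adjusted p = 0.0370). PAX5, also a B cell gene, lay the other way from CD79A without passing (log2 -0.59, edgeR adjusted p = 0.158). NKG7 did not pass either (log2 -0.09). PAX5 and NKG7 made up most of the summed lymphoid levels, averaging 19.1 and 13.0 CPM in the knockout and 28.7 and 13.8 CPM in the control. CD79A averaged 3.56 CPM in the knockout and 1.09 CPM in the control, and CD2 0.248 and 0.679 CPM. CD79A lost its call without control replicate 2 (0.0657) or 3 (0.0521), and CD2 without knockout replicate 1 (0.133) or any control library (0.0626 to 0.161). Summed levels of 10 erythroid and megakaryocyte markers were 7.06 to 11.8 CPM in the knockout and 8.10 to 12.7 CPM in the control, and those of 10 epithelial and fibroblast markers 5.63 to 10.4 CPM in the knockout and 3.33 to 5.59 CPM in the control. In edgeR 0 of the 2 tested genes of either list passed. At an unadjusted p under 0.05 there were 0 erythroid and megakaryocyte genes and 2 epithelial and fibroblast genes, both higher, 1 of which passed in DESeq2 and 0 in limma-voom. MS4A1, HBG1, ALAS2, PF4, KRT19 and COL3A1 were at 0 in every library. The part of the myeloid marker difference in the results below was not tested, and in bulk RNA fewer cells of a type and less RNA per cell cannot be told apart.

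Of the 38 genes 34 had enough counts to be tested, and 6 of these passed, 4 higher and 2 lower in the knockout. SLC2A3, SLC2A5, HK1 and VEGFA were higher, and GPI and NDRG1 were lower. These 6 genes are 17.6% of the 34, beside 11.8% of all genes tested, where 6.19% of all were higher and 5.63% lower. The 34 genes had a median average log2 CPM of 6.28, beside 3.72 for all genes tested. Of the 5451 tested genes with an average log2 CPM over 5, 12.5% passed. The median log2 fold change of the 34 genes was -0.14, with 13 above and 21 below 0, beside a median of -0.01 over all genes tested. The 4 genes left untested were HK3, PFKFB2, EGLN3 and CA9, which had at most 5 counts in any library.

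**Figure D1:**
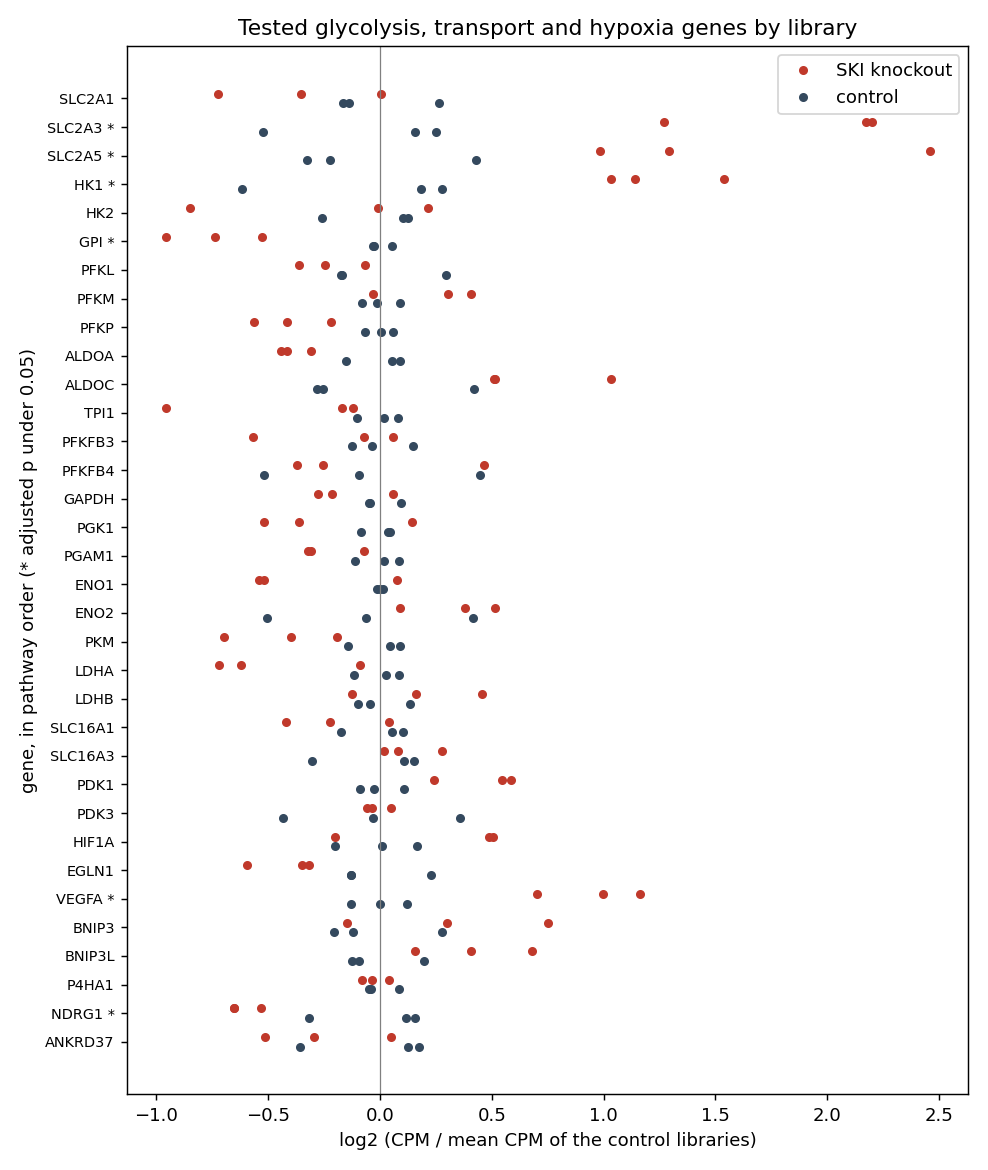
Each of the 34 tested genes in pathway order (vertical axis), with the log2 ratio of its CPM to the mean CPM of the control libraries (horizontal axis) for the 3 SKI knockout libraries (red, upper points) and the 3 control libraries (dark blue, lower points); an asterisk marks an adjusted p under 0.05. SLC2A3, SLC2A5, HK1 and VEGFA lie to the right of the control libraries, GPI and NDRG1 to the left, and most glycolytic enzymes lie within or just left of them.

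Sugar transporters showed the largest differences of the list. SLC2A3, which encodes the high-affinity glucose transporter GLUT3, had 149.8, 80.1 and 152 CPM in the knockout libraries, against 39.5, 23.1 and 37.0 CPM in the control libraries. Replicate 2 was the lowest library of both groups, and every knockout library was above every control library. The means were 127 ± 41.0 CPM in the knockout and 33.2 ± 8.84 CPM in the control (SD, n = 3 each), a 3.84-fold difference (log2 1.94, SE 0.27, edgeR adjusted p = 0.00136). SLC2A1, which encodes GLUT1, the transporter most often induced together with glycolysis, did not pass. It had 65.2, 83.6 and 50.5 CPM in the knockout libraries and 74.2, 100.03 and 75.8 CPM in the control libraries, which overlapped (log2 -0.33, SE 0.20, adjusted p = 0.318). SLC2A5, which encodes the fructose transporter GLUT5, was at low levels throughout, with 1.14, 3.17 and 1.41 CPM in the knockout libraries, against 0.774, 0.458 and 0.493 CPM in the control libraries. Its groups did not overlap, and knockout replicate 2 was the highest library (log2 1.73, SE 0.42, adjusted p = 0.0219). Without that library the log2 fold change of SLC2A5 was 1.18 and the call ended (adjusted p = 0.0525), as it did without control replicate 2 (1.59, 0.0904) or control replicate 3 (1.63, 0.110).

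Per length, SLC2A3 exceeded SLC2A1 in knockout replicates 1 and 3 and was below it in the other 4 libraries. Levels of different genes are compared here in RPKM, read counts scaled by gene length and library size. The lengths are those that came with the counts, such as 6210 bases for LDHA and 2983 for LDHB. They may differ from those of the transcripts expressed, and comparisons between genes depend on them. SLC2A3 made up 61.1, 39.6 and 67.3% of the summed RPKM of SLC2A1 and SLC2A3 in the knockout libraries, against 26.7, 13.6 and 25.0% in the control libraries. The shares did not overlap, at 56.0 ± 14.6% in the knockout and 21.8 ± 7.09% in the control (SD, n = 3 each, exact two-sided permutation p = 0.1, the smallest that 3 against 3 libraries allow, and 0.263 after Benjamini-Hochberg adjustment over the 21 shares compared). SLC2A3 has close copies elsewhere in the genome, and the handling of reads shared by copies was among the settings not given in the sources used here. SLC2A14, its nearest paralog, had 16, 8 and 2 counts in the knockout libraries and 8, 4 and 4 in the control libraries. The pseudogene SLC2A3P1 had 769, 748 and 341 counts in the knockout, against 553, 969 and 1089 in the control. SLC2A3 itself had 8288, 3868 and 7997 counts in the knockout and 1889, 1362 and 2101 in the control.

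**Figure D2:**
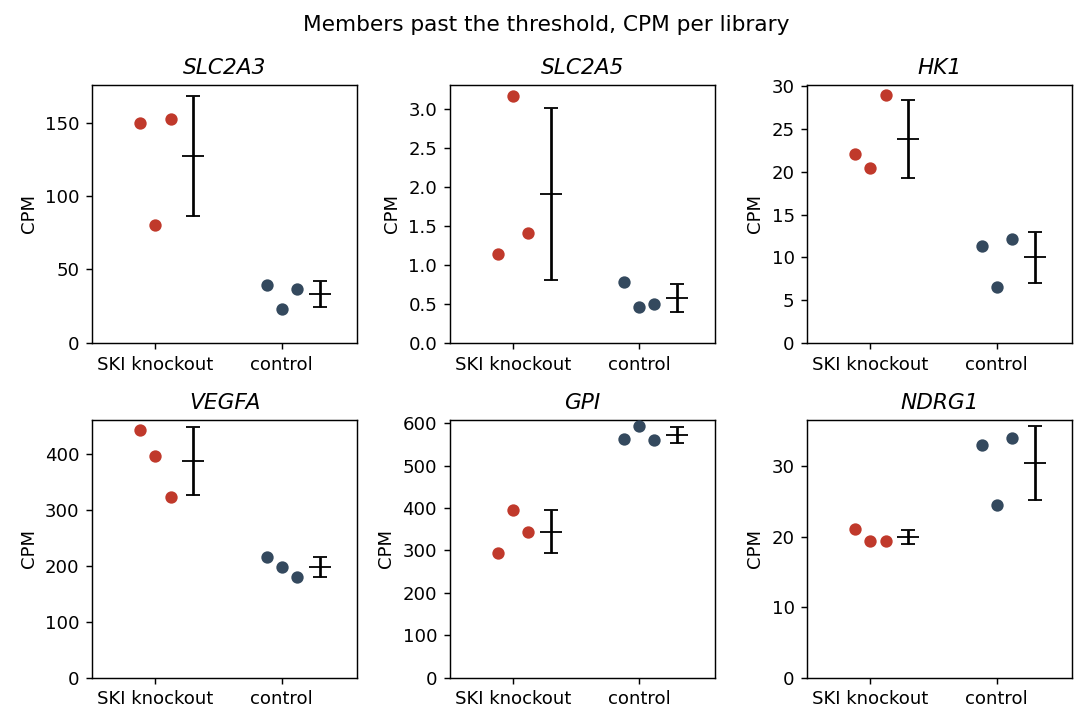
CPM per library (vertical axis, from 0) of the 6 genes past the threshold, with SKI knockout libraries in red on the left and control libraries in dark blue on the right; the bar beside each group is the mean with the SD of 3 libraries. The groups do not overlap in any panel. SLC2A3, for example, averages 127 CPM in the knockout and 33.2 CPM in the control.

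Of the 3 hexokinases, which trap glucose in the cell as glucose 6-phosphate, HK1 was higher and HK2 did not pass. HK1, the widely expressed form, had 22.0, 20.4 and 29.02 CPM in the knockout libraries, against 11.3, 6.52 and 12.1 CPM in the control libraries. The lowest knockout library was above the highest control library (2.39-fold, log2 1.26, SE 0.24, adjusted p = 0.00732). HK2, the form usually raised in growing tumour cells, had 131, 154 and 73.3 CPM in the knockout and 110.5, 144 and 142 CPM in the control (log2 -0.15, adjusted p = 0.737). HK2 remained the main hexokinase transcript per length, at 82.0 ± 8.87% of the summed RPKM in the knockout and 92.9 ± 2.51% in the control (SD, n = 3 each). HK1 made up 14.1, 11.6 and 28.0% in the knockout libraries, against 9.17, 4.26 and 7.73% in the control libraries, shares that did not overlap (exact permutation p = 0.1, adjusted 0.263). HK3, a form known from granulocytes, had 4, 0 and 3 counts in the knockout libraries and 0, 1 and 1 in the control libraries.

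The second enzyme of the path, glucose-6-phosphate isomerase, was the only enzyme of the path past the threshold in the lower direction. Its gene GPI had 295, 396 and 343 CPM in the knockout libraries, against 562, 593 and 559.6 CPM in the control libraries. Control libraries lay close together and well above the highest knockout library (1.66-fold lower, log2 -0.73, SE 0.17, adjusted p = 0.0151). GPI lies on chromosome 19, where the median log2 fold change of 693 genes was -0.48, with medians of -0.53, -0.55 and -0.38 in the knockout libraries. With each gene centred on its chromosome the log2 fold change of GPI was -0.25 (adjusted p = 0.391), and with centring on its 50 nearest neighbours -0.35 (adjusted p = 0.220). The call also ended without knockout replicate 1 (-0.62, 0.0549), control replicate 2 (-0.70, 0.0749) or control replicate 3 (-0.75, 0.0634). Whether the line differs from the control in copies of chromosome 19 was not tested.

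Phosphofructokinase subunits, which commit the sugar to glycolysis, did not pass. The liver-type gene PFKL averaged 207 ± 21.4 CPM in the knockout and 241 ± 47.3 CPM in the control (SD, n = 3 each, log2 -0.22). The platelet-type gene PFKP had 63.3, 80.3 and 70.1 CPM in the knockout, against 89.2, 93.9 and 97.3 CPM in the control, groups that did not overlap but did not pass (log2 -0.39, SE 0.15, adjusted p = 0.106). The muscle-type gene PFKM was far lower, at 4.40 ± 0.667 CPM in the knockout and 3.73 ± 0.225 CPM in the control (SD, n = 3 each). Of the PFKFB genes, whose enzymes make and remove the activator fructose 2,6-bisphosphate, PFKFB3 averaged 28.9 ± 6.21 CPM in the knockout and 32.5 ± 3.17 CPM in the control (adjusted p = 0.599). PFKFB4 averaged 3.22 ± 1.08 CPM in the knockout and 3.23 ± 1.09 CPM in the control (log2 fold change 0.00), and PFKFB2 had 5, 0 and 0 counts in the knockout and 1, 0 and 3 in the control. PFKFB3 supplied 90.9 ± 1.72% of the summed RPKM of the 3 PFKFB genes in the knockout and 91.6 ± 3.25% in the control (SD, n = 3 each).

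Aldolase, which splits the sugar, and triosephosphate isomerase, which interconverts the products, did not pass. ALDOA had 841, 826 and 906 CPM in the knockout libraries, against 1193, 1165 and 1010 CPM in the control libraries (log2 -0.39, SE 0.17, adjusted p = 0.158). ALDOC, the form known from brain, stood the other way, with 21.9, 22.0 and 31.5 CPM in the knockout, against 20.6, 12.9 and 12.6 CPM in the control. The groups of either gene did not overlap, and ALDOC was the member nearest the threshold without passing (log2 0.71, SE 0.23, adjusted p = 0.0683). It passed in DESeq2 (adjusted p = 0.0279) and in the authors' deposited table (adjusted p = 0.0262), and over the 15 alternatives its adjusted p ran from 0.00546 to 0.25. ALDOC made up 5.19, 5.29 and 6.82% of the summed aldolase RPKM in the knockout libraries, against 3.50, 2.27 and 2.56% in the control libraries, again without overlap (exact permutation p = 0.1, adjusted 0.263). TPI1 had 334, 577 and 597 CPM in the knockout and 686, 658 and 604 CPM in the control, with knockout replicate 1 lowest (log2 -0.37, adjusted p = 0.305).

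None of the 6 genes of lower glycolysis passed in edgeR, DESeq2 or limma-voom, with 1, PKM, at an unadjusted p under 0.05, and 5 had log2 fold changes below 0. GAPDH, the most abundant gene of the list, had 6838, 7130.2 and 8630.2 CPM in the knockout libraries, against 8833, 8022 and 7995 CPM in the control libraries, with overlap (log2 -0.14, SE 0.21, adjusted p = 0.721). PGK1, which makes the first ATP of the path, averaged 502 ± 126 CPM in the knockout and 584 ± 28.9 CPM in the control, and the mutase gene PGAM1 161 ± 16.0 CPM in the knockout and 188 ± 12.9 CPM in the control (SD, n = 3 each). ENO1, the main enolase, had 2087, 3152 and 2057 CPM in the knockout, against 3016, 2995 and 2963 CPM in the control. The control libraries differed by little, whereas knockout replicate 2 was above all of them and the other knockout libraries below (log2 -0.30, adjusted p = 0.407). ENO2, the neuronal enolase, was at 51.2 ± 7.49 CPM in the knockout and 40.5 ± 12.9 CPM in the control (SD, n = 3 each, log2 0.34, adjusted p = 0.352). PKM, the pyruvate kinase gene, had 535, 759.9 and 658 CPM in the knockout, against 922, 895 and 787 CPM in the control, groups that did not overlap (log2 -0.42, SE 0.18, adjusted p = 0.166).

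Summed over the 18 enzymes from glucose to lactate, levels were 13879, 16525 and 16763 CPM in the knockout libraries and 18897, 17747 and 17348 CPM in the control libraries. The knockout libraries were thus below the control libraries, at 15722 ± 1601 CPM in the knockout and 17998 ± 804 CPM in the control (SD, n = 3 each), a ratio of 0.874. Without GAPDH, which makes up much of that sum, the ratio was 0.843. Of the 17 enzymes tested 12 had log2 fold changes below 0 and 5 above, and 2 passed, HK1 and GPI. The order of the enzymes per length was nearly alike in both groups. GAPDH led at 2532 ± 323 RPKM in the knockout and 2784 ± 160 RPKM in the control, followed by ENO1 at 614 ± 158 RPKM in the knockout and 756 ± 6.78 RPKM in the control, and LDHB at 587 ± 118 RPKM in the knockout and 517 ± 44.0 RPKM in the control (SD, n = 3 each).

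Lactate dehydrogenase, which turns pyruvate into lactate, is built of A and B subunits. LDHA, the subunit usually raised with glycolysis, had 430.1, 622 and 401 CPM in the knockout libraries, against 702, 673 and 609 CPM in the control libraries. Knockout replicate 2 reached into the control range (log2 -0.45, SE 0.19, adjusted p = 0.160). Without that library the log2 fold change of LDHA was -0.65 with an adjusted p of 0.0312. LDHB had 1415, 1725 and 2116 CPM in the knockout and 1689.8, 1440.4 and 1494 CPM in the control (log2 0.18, adjusted p = 0.593). The LDHA share of the summed RPKM was 12.7, 14.8 and 8.35% in the knockout libraries, against 16.6, 18.3 and 16.4% in the control libraries, without overlap. The means were 11.95 ± 3.28% in the knockout and 17.1 ± 1.06% in the control (SD, n = 3 each, exact permutation p = 0.1, adjusted 0.263), so LDHB was the main subunit transcript in both lines.

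**Figure D3:**
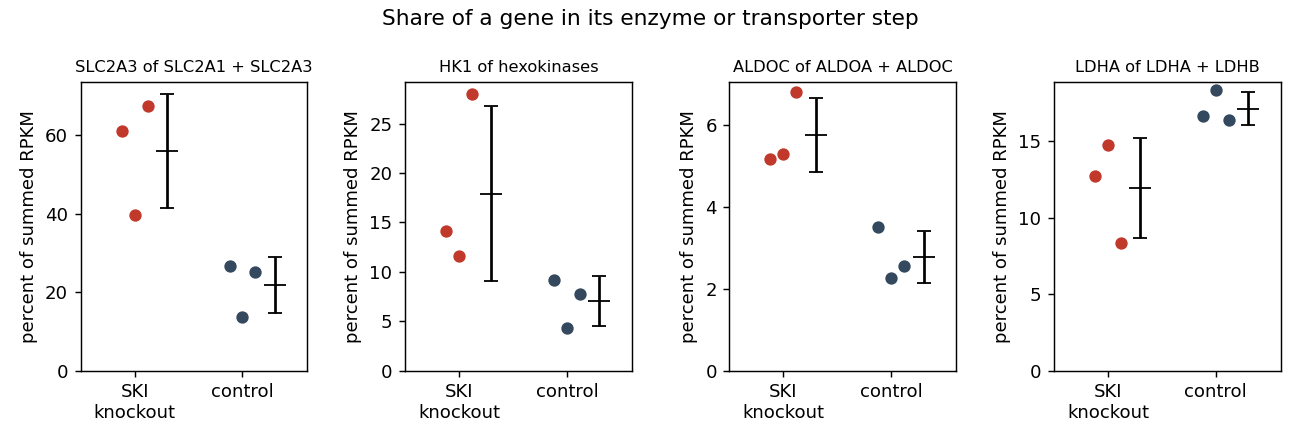
Share of 1 gene in the summed RPKM of its step (vertical axis, percent, from 0) in the SKI knockout libraries (red, left) and the control libraries (dark blue, right), with the mean and SD of 3 libraries as a bar. Only steps with shares that did not overlap between the groups are drawn. SLC2A3, HK1 and ALDOC shares are higher and the LDHA share is lower in every knockout library than in every control library. Each has an exact permutation p of 0.1, or 0.263 after adjustment over 21 shares. In a step of a gene pair the shares mirror each other, and both are among the 21.

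Lactate exporters and pyruvate dehydrogenase kinases did not pass. SLC16A1, which encodes the transporter MCT1, averaged 155 ± 24.9 CPM in the knockout and 176 ± 17.7 CPM in the control (SD, n = 3 each). SLC16A3, which encodes the hypoxia-induced exporter MCT4, averaged 180.0 ± 17.1 CPM in the knockout and 164 ± 27.1 CPM in the control (SD, n = 3 each, adjusted p = 0.659). PDK1, a kinase that keeps pyruvate out of the mitochondrion and a known HIF-1 target, had 31.9, 32.8 and 25.8 CPM in the knockout libraries, against 20.5, 23.5 and 21.5 CPM in the control libraries. Its groups did not overlap, but the test did not pass (log2 0.47, SE 0.16, adjusted p = 0.0862), except without knockout replicate 3 (0.59, 0.0243). PDK3 stayed near 2.5 CPM, at 2.52 ± 0.0999 CPM in the knockout and 2.54 ± 0.690 CPM in the control (SD, n = 3 each).

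Genes of oxygen sensing did not pass. HIF1A, the oxygen-controlled subunit of HIF-1, which is governed mainly at the protein level, had 23.5, 23.3 and 14.4 CPM in the knockout and 14.4, 18.6 and 16.7 CPM in the control (log2 0.30, SE 0.21, adjusted p = 0.398). EGLN1, the main prolyl hydroxylase acting on it, had 33.6, 34.3 and 28.3 CPM in the knockout libraries, against 39.1, 50.1 and 39.1 CPM in the control libraries. These groups did not overlap (log2 -0.42, SE 0.16, adjusted p = 0.126). EGLN3, a hydroxylase that hypoxia induces strongly in many cells, had 0 counts in all 6 libraries, where 3 counts, the limit that a count of 0 allows, correspond to 0.0509 to 0.0628 CPM, for counting error only.

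Of the 7 other hypoxia-induced genes VEGFA was higher, NDRG1 was lower, and the rest did not pass or were not tested. VEGFA, the angiogenic growth factor, had 443, 395 and 322 CPM in the knockout libraries, against 215, 198 and 180.5 CPM in the control libraries. Every knockout library was above every control library (log2 0.97, SE 0.17, adjusted p = 0.00429). VEGFA lies on chromosome 6, where 518 genes had a median log2 fold change of 0.43, with 0.41, 0.43 and 0.44 in the knockout libraries. With chromosome centring the log2 fold change of VEGFA was 0.52 (adjusted p = 0.0714) and with neighbour centring 0.63 (adjusted p = 0.0526), so that either ended the call. NDRG1, a stress- and hypoxia-induced gene, had 21.1, 19.4 and 19.4 CPM in the knockout, against 33.0, 24.4 and 33.98 CPM in the control (1.53-fold lower, log2 -0.61, SE 0.17, adjusted p = 0.0406). Its groups did not overlap, but the call held in only 6 of 15 alternatives, with adjusted p-values from 0.0150 to 0.169. The alternatives that ended it were limma-voom (0.0505), library totals (0.0754), chromosome centring (0.0555), neighbour centring (0.113) and 5 of the 6 that leave out a library, where without control replicate 3 it was 0.169.

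The remaining hypoxia-induced genes gave no common direction. BNIP3 and BNIP3L, which mark mitochondria for removal, averaged 12.3 ± 3.80 and 16.6 ± 3.02 CPM in the knockout, against 9.70 ± 1.80 and 12.3 ± 1.57 CPM in the control (SD, n = 3 each, log2 0.35 and 0.43, adjusted p = 0.387 and 0.172). The pseudogene BNIP3P1 had 52, 12 and 56 counts in the knockout, against 11, 16 and 14 in the control. P4HA1, a collagen prolyl hydroxylase subunit, differed by little, at 35.0 ± 1.49 CPM in the knockout and 35.6 ± 1.88 CPM in the control (SD, n = 3 each). ANKRD37, a compact HIF-1 target, had 1.92, 1.51 and 1.30 CPM in the knockout and 2.09, 2.02 and 1.44 CPM in the control (log2 -0.23, SE 0.29, adjusted p = 0.646). CA9, a carbonic anhydrase often used as a marker of hypoxia, had 1, 1 and 0 counts in the knockout and 0 in every control library. Without VEGFA the hypoxia-induced genes summed to 95.7, 82.8 and 77.9 CPM in the knockout libraries and 95.4, 80.8 and 93.6 CPM in the control libraries, which overlapped.

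The promoters of these genes are shown because several carry the core that hypoxia-inducible factors bind, in members that passed and in members that did not. Sequences are those of RefSeq on GRCh38.p14, a later build than the hg19 named for the counts. The core was searched as ACGTG or GCGTG on both strands, in windows from 250 bases before to 50 after each start, and a CACGTG run counts once for each strand. Windows were matched for 32 of the 38 genes, all but VEGFA, SLC2A3, NDRG1, BNIP3L, SLC16A1 and PFKFB2. A core stood in 39 of the 59 windows of these genes, since several genes have more than 1 start, and in 48.4% of all 34796 windows. Counted by gene, a core stood in at least 1 window of all 3 genes past the threshold that have one, of 25 of the 26 tested genes that did not pass, and of 52.3% of the 27058 genes in all. Genes with more windows have more chances of a match. Below are the 250 bases before the start, 5′ to 3′ on the gene's strand, for 3 known hypoxia-induced genes that did not pass, LDHA (chr11:18394313-18394562, plus strand), BNIP3 (chr10:131981924-131982173, minus strand) and ANKRD37 (chr4:185396591-185396840, plus strand), and for the 2 genes past the threshold with a single window, GPI (chr19:34364742-34364991, plus strand) and SLC2A5 (chr1:9069636-9069885, minus strand). Capitals mark the core on either strand.
LDHA: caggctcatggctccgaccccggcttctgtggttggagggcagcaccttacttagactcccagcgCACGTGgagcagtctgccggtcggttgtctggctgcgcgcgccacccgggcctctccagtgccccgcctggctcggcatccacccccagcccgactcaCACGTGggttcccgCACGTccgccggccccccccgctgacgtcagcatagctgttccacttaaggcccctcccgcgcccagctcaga
BNIP3: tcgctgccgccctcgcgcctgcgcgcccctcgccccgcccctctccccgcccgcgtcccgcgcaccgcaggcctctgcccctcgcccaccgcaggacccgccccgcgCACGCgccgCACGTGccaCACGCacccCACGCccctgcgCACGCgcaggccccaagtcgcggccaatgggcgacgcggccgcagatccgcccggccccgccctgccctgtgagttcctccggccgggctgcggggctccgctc
ANKRD37: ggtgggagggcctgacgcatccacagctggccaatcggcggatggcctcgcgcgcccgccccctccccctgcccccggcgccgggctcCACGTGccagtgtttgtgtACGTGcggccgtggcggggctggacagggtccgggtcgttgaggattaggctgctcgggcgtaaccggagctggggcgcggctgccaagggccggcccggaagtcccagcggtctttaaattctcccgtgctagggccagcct
GPI: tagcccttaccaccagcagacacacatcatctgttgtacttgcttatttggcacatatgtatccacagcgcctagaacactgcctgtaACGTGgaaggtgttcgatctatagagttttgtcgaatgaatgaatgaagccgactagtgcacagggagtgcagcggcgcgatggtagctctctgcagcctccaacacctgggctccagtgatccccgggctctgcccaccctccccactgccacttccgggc
SLC2A5: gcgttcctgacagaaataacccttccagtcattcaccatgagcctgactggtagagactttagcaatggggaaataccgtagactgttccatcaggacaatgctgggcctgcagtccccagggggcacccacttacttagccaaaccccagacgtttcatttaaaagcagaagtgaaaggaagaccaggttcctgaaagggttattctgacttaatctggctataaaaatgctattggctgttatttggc
LDHA held 5 cores in these bases, the nearest starting 73 bases before the start, BNIP3 6 and ANKRD37 3, and none of the 3 genes passed. LDHA has 2 windows, and the one with the most cores was printed, whereas BNIP3 and ANKRD37 have 1 window each. HK1, which passed and has a core in at least 1 window, was not printed. The printed genes thus do not compare core numbers between genes that passed and genes that did not. GPI held 1, starting 162 bases before the start, and SLC2A5 none before its start and 1 after it. A match describes letters in the window, and binding of a factor was not measured.

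Other genes of glucose metabolism were followed in further lists. None of the 9 tested genes on a list of other glycolysis genes passed, nor did any of 9 pentose phosphate enzymes or of 16 HIF subunits and regulators. Their median log2 fold changes were -0.04, 0.09 and 0.02. At an unadjusted edgeR p under 0.05, 1 of the other glycolysis genes, C12orf5, was higher and 1, PGAM5, lower (log2 0.49 and -0.57). At that level 2 pentose phosphate genes were higher, and 1 HIF gene was higher and 1 lower. DESeq2 called 2 pentose phosphate genes higher and 1 HIF gene lower, limma-voom called 1 HIF gene lower, and neither called any of the other glycolysis genes. Of 5 other sugar and lactate transporter genes 1 was lower, BSG, the chaperone of the lactate transporters, at 175 ± 29.1 CPM in the knockout and 303 ± 14.3 CPM in the control (SD, n = 3 each, log2 -0.79, adjusted p = 0.00983). Of 10 genes of pyruvate entry to mitochondria 1 was higher, the pyruvate carrier gene MPC1, at 56.9 ± 1.99 CPM in the knockout and 33.5 ± 5.10 CPM in the control (SD, n = 3 each, log2 0.77, adjusted p = 0.00955). BSG lies on chromosome 19 and MPC1 on chromosome 6, and chromosome centring ended both calls, at -0.32 (adjusted p = 0.218) and 0.32 (adjusted p = 0.218). Both calls also ended without control replicate 3, with adjusted p-values of 0.0577 for BSG and 0.0617 for MPC1. In the other direction, DESeq2 and the fit with no filter each called 1 transporter gene higher and 1 pyruvate entry gene lower. Limma-voom called 0 of either.

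Of 12 tested genes of glycogen and gluconeogenesis enzymes 1 was higher and 2 were lower, with a median log2 fold change of 0.05. FBP1, which runs the phosphofructokinase step backwards, had 2.62, 2.21 and 1.89 CPM in the knockout libraries, against 0.439, 0.119 and 0.194 CPM in the control libraries. The lowest knockout library was above the highest control library (9.08-fold, log2 3.18, SE 0.43, adjusted p = 0.00122). Control counts of FBP1 were 21, 7 and 11, and without control replicate 1 the log2 fold change was 3.82 (adjusted p = 0.000556). Glycogen synthase GYS1 averaged 32.2 ± 3.11 CPM in the knockout and 61.8 ± 4.36 CPM in the control, and glycogen phosphorylase PYGL 227 ± 19.9 CPM in the knockout and 357 ± 38.5 CPM in the control (SD, n = 3 each, log2 -0.94 and -0.65, adjusted p = 0.00272 and 0.0201). GYS1 lies on chromosome 19 and PYGL on chromosome 14, and chromosome centring ended both calls (log2 -0.46 and -0.47, adjusted p = 0.0946 and 0.0836). The call of PYGL also ended without knockout replicate 1 (0.0730) and without each control library (0.0521 to 0.107). Of 5 genes of the MondoA glucose-sensing axis 1 was lower, MLXIP, which encodes MondoA itself, at 60.7 ± 12.6 CPM in the knockout and 108 ± 13.9 CPM in the control (SD, n = 3 each, log2 -0.82, adjusted p = 0.0133). The call of MLXIP ended without control replicate 2 (0.0558) or control replicate 3 (0.0769).

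Among 33 tested hypoxia-induced genes outside the list of 38, 4 were higher and 2 lower, with a median log2 fold change of -0.01. These are 18.2% of the 33, beside 11.8% of all genes tested. The higher genes were BHLHE40, PLOD2, HMOX1 and TGFA, the last 2 at log2 2.18 and 1.42 (edgeR adjusted p = 0.0175 and 0.0219). Without control replicate 3, 1 gene of this list was higher and 0 lower. Without knockout replicate 1, 2 were higher and 1 lower, and without control replicate 2, 2 and 2. Without knockout replicate 2 the list had 6 higher and 3 lower genes. BHLHE40, a transcriptional repressor induced by hypoxia and by TGF-beta, averaged 47.8 ± 12.7 CPM in the knockout and 18.1 ± 4.60 CPM in the control (SD, n = 3 each, log2 1.40, adjusted p = 0.00384). PLOD2, a collagen lysyl hydroxylase, was at 0.367 ± 0.154 CPM in the knockout and 0.0540 ± 0.0269 CPM in the control, low in both groups (SD, n = 3 each, log2 2.70, adjusted p = 0.00997, and 0.0715 without control replicate 3). The transferrin receptor gene TFRC had 35.1, 88.7 and 42.3 CPM in the knockout, against 105, 265 and 195 CPM in the control, with replicate 2 highest in both groups (log2 -1.77, adjusted p = 0.0102). Its adjusted p was 0.0612 without knockout replicate 1 and 0.0535 without control replicate 3. The histone demethylase gene KDM4B averaged 35.2 ± 4.02 CPM in the knockout and 58.3 ± 8.56 CPM in the control (SD, n = 3 each), a log2 fold change of -0.73 (adjusted p = 0.0148), or -0.24 (adjusted p = 0.414) with centring on chromosome 19, and it also lost its call without control replicate 3 (0.0876).

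Among the 34 tested genes 13 had groups that did not overlap, 38.2% of them, where 32.2% of all genes tested did. Besides the 6 that passed, these were ALDOC and PDK1, with higher knockout values, and PFKP, ALDOA, TPI1, PKM and EGLN1, with lower ones. The calls of SLC2A3 and HK1 held in all 15 alternatives, with log2 fold changes from 1.73 to 2.21 and from 1.02 to 1.42. An annotated gene overlaps exons of HK1 and of VEGFA from the opposite strand, and another those of GPI from the same one. With the strand setting unknown, reads of such partners cannot be told apart. In the authors' deposited table all 6 genes that passed here passed with the same sign, and 1 more did, ALDOC.

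**Figure D4:**
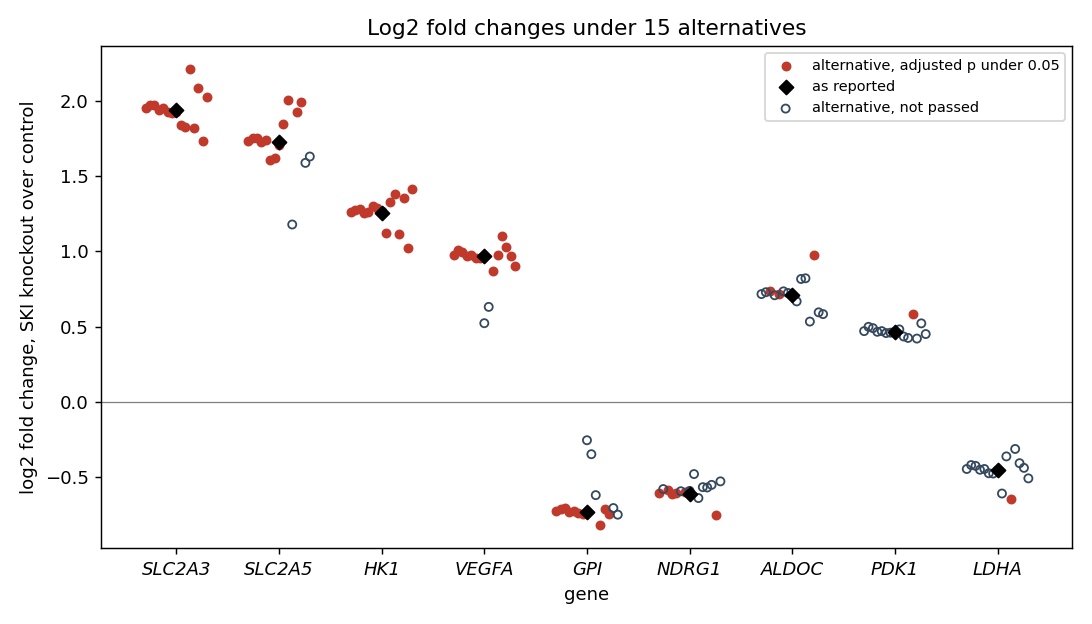
Log2 fold change of SKI knockout over control (vertical axis) for the 6 genes past the threshold and for ALDOC, PDK1 and LDHA, as reported (black diamonds) and under 15 alternatives, filled red where the adjusted p was under 0.05 and open where not. SLC2A3 and HK1 are filled throughout, while VEGFA and GPI have open points nearer 0 with chromosome or neighbour centring.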

How the data were processed

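Per the labels' protocols, the 6 HL60 libraries came from a TruSeq stranded mRNA kit. TopHat2, featureCounts of Subread, DESeq, DESeq2 and bcl2fastq, and the build hg19 (GRCh37), stand in the submitters' processing notes, with versions, annotation, strand setting and handling of shared reads not given in the sources used here. Every test used the raw counts by gene name that the authors deposited with gene lengths. The authors' other table gives scaled counts (a signal obtained with size factors), the authors' log2 fold changes, a test score and p-values, of which only log2 fold changes and adjusted p-values were compared here.

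Groups and replicates were taken from the titles. Genes were kept by filterByExpr, scaled by TMM and tested with edgeR 4.0.16 (glmQLFit, glmQLFTest, R 4.3.3) with group as the only term. Standard errors come from the F statistic, CPM and RPKM use TMM-scaled totals, and 3 counts correspond to 0.0509 to 0.0628 CPM. Alternatives were library totals, the size factors of DESeq2, no filter, CPM at least 1 in 3 libraries, DESeq2 1.42.0, limma-voom (limma 3.58.1), a replicate block, chromosome or neighbour centring and leaving out each library. Centring subtracts, per library, the median log2 deviation of a gene's chromosome or of its 50 nearest neighbours with an average log2 CPM over 2, as an offset. Chromosomes and exon overlaps come from GENCODE release 29 by symbol, on a later build. This placed 84.7% of tested genes on a chromosome. The 38 genes and the other lists were chosen with earlier results of these data known. All 38 are described, and of each other pathway list up to 4 genes past the threshold with the smallest p. HMOX1, TGFA, C12orf5 and PGAM5 are named besides. Cell type markers are given by list. Scripts were tested on simulated data.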

Additional observations from a re-analysis of the deposited data

How the results depend on the processing

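The number of listed genes that were higher was 4, and 3 to 5 under all 15 alternatives. The number that were lower was 2, and it was 1 with library totals, 1 in limma-voom, 0 with chromosome centring and 0 with neighbour centring, and from 0 to 2 without a single library. In both centred fits GPI and NDRG1 lost their calls, and VEGFA among the higher genes. The median log2 fold change of the tested genes was -0.14, and from -0.17 to 0.0058 without a single library, the highest value being the one without knockout replicate 3. Over all genes, 1012 were higher and 920 lower. Without a filter 1630 were higher, with chromosome centring 553 were lower and with neighbour centring 488. Without a single library the higher genes numbered from 440 to 1410 and the lower ones from 300 to 1078. The cause of these changes was not tested, beyond the fewer samples and the removed chromosome medians that the alternatives themselves consist of. Of the 28 genes that did not pass, 25 passed under none of the 15 alternatives, and the other 3 are ALDOC, PDK1 and LDHA. The sign differed from the reported one in at least 1 alternative for 6 of the 28. Among the other lists, no filter gave 1 lower gene of the other glycolysis genes, 2 higher pentose phosphate genes and 1 lower HIF gene. The same HIF list had 1 lower gene under either centring. The replicate block gave 1 lower gene of the other glycolysis genes. Without a single library, up to 1 of the other glycolysis genes and up to 2 HIF genes were lower. Of the pentose phosphate genes, up to 2 were then higher and up to 1 lower.

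Correlations across genes of the deviations of same-numbered libraries were -0.09, 0.30 and -0.04 for replicates 1, 2 and 3. Libraries with different numbers reached similar values, with 0.34 for knockout replicate 3 with control replicate 1 and -0.32 for knockout replicate 2 with control replicate 1. The value of 0.30 thus did not stand out, and the numbers were not taken as pairs. With the replicate number as a block, 4 listed genes were higher and 2 lower, and their median log2 fold change was -0.17.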
